A study of Mus musculus with 6 samples.

Results

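Bcl10, Tifa, Nfkb2, Cd55, Unc13d and Psme2 are 6 genes of NF-κB or immune signalling whose promoters were among the 235 in the deposited ATAC-seq table. They were chosen by their difference between cultures in an earlier fit of these same libraries, after the libraries had been set to a common median, and were grouped by gene function after their values were known. ATAC-seq reads chromatin accessibility from the places where the transposase Tn5 can insert sequencing adapters. Limbs of wild-type mice of the outbred CD-1 stock were kept as explants and sampled 1 day post amputation (dpa). One culture was an air-liquid interface (ALI, 3 libraries), the other a 96-well plate (3 libraries). From each culture 4 limbs were taken and dissociated with trypsin, and no sorting of cells is stated. The sources used here state neither the age of the mice nor whether libraries of a culture came from separate animals, so the spread between libraries may be technical. In such bulk samples, fewer cells with an open promoter and a less open promoter in each cell cannot be told apart.

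NF-κB factors are dimers that wait in the cytoplasm until a signal frees them to enter the nucleus. In the canonical route, adaptors activate a kinase complex that destroys the inhibitor of NF-κB, and in the non-canonical route the precursor protein p100 is cut to p52. Nfkb2 encodes p100. Bcl10 is the adaptor of the CARD-BCL10-MALT1 complex, which carries receptor signals to the kinases. Tifa is an adaptor that binds TRAF6 and couples the sensing of a bacterial sugar to the same kinases. Psme2 encodes a subunit of the interferon-inducible proteasome activator PA28. Cd55, also named decay-accelerating factor, protects cells from complement. Unc13d encodes Munc13-4, which primes secretory granules for release in cytotoxic lymphocytes and other cells. The table centres each window on a transcription start site (TSS). On GRCm39, the build that the submitters' processing notes name, these lay at chromosome 3, 145628560 (Bcl10, plus strand), chromosome 3, 127583455 (Tifa, plus), chromosome 19, 46292760 (Nfkb2, plus), chromosome 1, 130390482 (Cd55, minus), chromosome 11, 115968788 (Unc13d, minus) and chromosome 14, 55828571 (Psme2, minus). Each window ran from 1000 bp upstream to 1000 bp downstream in bins of 20 bp, and none overlapped the window of another promoter in the table.

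RefSeq promoter sequences of GRCm38.p6 matched 5 of the 6 genes, at 9 annotated starts. Unc13d had no entry. The start in the table was not matched to one of these starts, because the builds differ. The 250 bases before each start were searched on both strands for the κB consensus, the sequence class bound by NF-κB. It occurred before 7.25% of all 32851 RefSeq starts of mouse genes, and before each of the 3 starts of Nfkb2 and the single start of Bcl10. No match lay in these windows of Tifa, Cd55 or Psme2. Shown are the first start of Nfkb2, which held the most matches, the single start of Bcl10, and the first start of Psme2, whose promoter had the strongest signal of the 6. Each runs 5′ to 3′ on the strand of the gene and ends 1 base before the start, and capitals mark κB matches, which overlap in the left-hand Nfkb2 block.
Nfkb2, first start, chr19:46304487-46304736, plus strand: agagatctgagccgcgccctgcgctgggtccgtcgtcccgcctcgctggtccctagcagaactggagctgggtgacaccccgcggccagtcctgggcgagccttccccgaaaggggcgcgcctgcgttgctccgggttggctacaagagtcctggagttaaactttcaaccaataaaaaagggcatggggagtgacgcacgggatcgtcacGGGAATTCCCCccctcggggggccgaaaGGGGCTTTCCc
Bcl10, chr3:145924012-145924261, plus strand: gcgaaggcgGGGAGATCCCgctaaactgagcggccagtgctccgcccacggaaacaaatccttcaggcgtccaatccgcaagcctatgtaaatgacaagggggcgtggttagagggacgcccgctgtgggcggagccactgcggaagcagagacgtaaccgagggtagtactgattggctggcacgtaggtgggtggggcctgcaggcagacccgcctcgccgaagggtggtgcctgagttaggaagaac
Psme2, first start, chr14:55591102-55591351, minus strand: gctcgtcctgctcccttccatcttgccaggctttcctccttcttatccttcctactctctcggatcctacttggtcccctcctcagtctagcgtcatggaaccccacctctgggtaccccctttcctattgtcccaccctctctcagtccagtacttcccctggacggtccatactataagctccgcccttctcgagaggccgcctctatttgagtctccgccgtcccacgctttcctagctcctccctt
The other starts of Nfkb2 lay 958 and 1193 bp downstream of the first. Their κB matches are shown in 30 bases each.
Nfkb2, start 2: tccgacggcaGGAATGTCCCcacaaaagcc
Nfkb2, start 3: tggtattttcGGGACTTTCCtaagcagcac

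Relative to each start, the matches lay at −39 to −30 (GGGAATTCCC), overlapping −38 to −29, and at −11 to −2 (GGGGCTTTCC) for the first start of Nfkb2. They lay at −236 to −227 for its second start (GGAATGTCCC) and −225 to −216 for the third (GGGACTTTCC). In Bcl10 the match (GGGAGATCCC) lay far from the start, at −241 to −232. Other motifs were searched in the same bases. The GC box GGGCGG, bound by Sp factors, occurred before 32.7% of all starts and 49.02% of the 204 RefSeq starts of genes in the table. It lay before the starts of Bcl10 and Cd55, both of Psme2 and all but the first of Nfkb2, but neither of Tifa. CCAAT, present before 33.8% of all starts, was found at 2 places at Bcl10 and 1 each at the first start of Nfkb2 and the second of Tifa. The AP-1 motif TGANTCA (6.75% of all starts) occurred at the second start of Nfkb2, and the STAT motif TTCNNNGAA (7.02%) at its first. ACGTG, the core that hypoxia-inducible factors bind (16.6%), occurred at Bcl10 and at the second start of Tifa. TATAAA (12.4%) occurred at the second start of Tifa, in overlapping matches on both strands, and the ETS motif CCGGAAG (6.91%) at none of the 9. GC content ran from 52.0% (second start of Tifa) to 72.0% (second start of Nfkb2), against a median of 57.6% over 204 RefSeq starts of genes in the table. The ratio of observed to expected CpG was lowest at Cd55, at 0.315, against a median of 0.634. A match is a run of letters and not a measured site.

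The 6 libraries differed in overall level. The median window signal over all promoters was 8.32, 8.62 and 13.0 in 96-well replicates 1 to 3 and 9.36, 14.7 and 9.81 in ALI replicates 1 to 3, so that 1 library of each culture stood above the others. Signal is coverage normalized to sequencing depth by the authors, with no formula stated. Of markers for other cell types a limb explant could hold, none of those for leukocytes (9 genes), endothelium (3), erythroid cells (3), cartilage (3) or muscle (3) was analysed here. Of the keratinocyte list, 2 of 6 were in the table (Cdh1 and Trp63), and of the limb mesenchyme list 2 of 7 (Msx1 and Msx2). The summed signal of the keratinocyte pair was 6.86 to 10.4 in 96-well and 6.76 to 8.37 in ALI libraries, and that of the mesenchyme pair 16.8 to 28.1 and 17.2 to 25.9. With libraries set to a common median, Cdh1 (−0.25 log2 units, ALI minus 96-well), Trp63 (−0.40) and Msx1 (−0.19) had lower values in ALI with no overlap. Msx2 (−0.03) overlapped. On that scale 17.4% of all promoters were lower in ALI with no overlap. So were 4 of the 6 genes, which were chosen on it. None of the 4 markers passed in limma (adjusted p = 0.080 for Cdh1, the lowest). The part of cell composition in the values below was not tested. Of 36 genes in a list of NF-κB signalling, only Nfkb2, Bcl10 and Tifa were in the table, and the lists of complement regulators, granule release and proteasome activators were each represented by the 1 gene named above.

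The 6 promoters spanned most of the range of accessibility in the table. Psme2 ranked 6th of 235 by mean window signal, Nfkb2 64th, Tifa 132nd, Cd55 133rd, Unc13d 156th and Bcl10 189th. Window signal at Psme2 was 32.8, 32.2 and 43.6 in 96-well replicates 1 to 3 and 42.2, 68.7 and 43.2 in ALI replicates 1 to 3. Nfkb2 had 13.6, 13.2 and 18.3 in 96-well and 18.4, 24.9 and 17.6 in ALI libraries. At both promoters ALI replicate 2 stood highest of all, and the groups overlapped only at 96-well replicate 3. Tifa had 7.69, 7.91 and 13.7 in 96-well and 6.95, 9.77 and 6.66 in ALI libraries. Cd55 had 8.17, 7.84 and 12.03 in 96-well and 6.69, 10.4 and 7.42 in ALI libraries. These promoters were close in level, and their highest libraries were 96-well replicate 3 and ALI replicate 2. Unc13d had 5.79, 6.39 and 8.09 in 96-well and 5.58, 5.87 and 4.48 in ALI libraries, which overlapped narrowly. Bcl10, the weakest, had 2.40, 2.56 and 3.31 in 96-well and 1.79, 1.97 and 1.86 in ALI libraries, with no overlap between the groups. Weaker promoters rested on fewer reads. Read from the signal that 1 read adds, the Bcl10 window held 12.3 to 30.7 reads per base across the libraries, and the Psme2 window 236.1 to 789 reads per base.

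**Figure D1:**
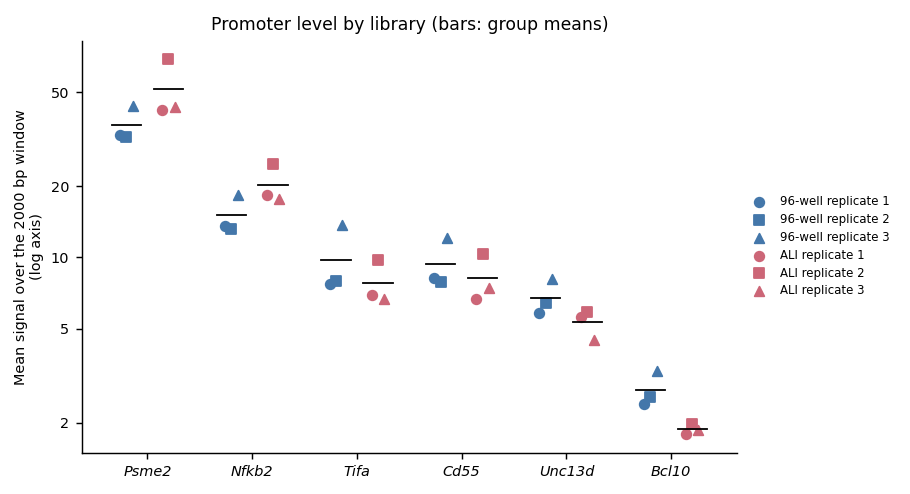
Mean ATAC-seq signal over the promoter window (log axis) for the 6 genes, 1 point per library, with black bars at the mean of each culture (n = 3). Psme2 lies highest in every library and Bcl10 lowest, and the groups of Bcl10 alone do not overlap.

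The order of levels was tested within libraries, so that differences in library level cancelled. Pairs were neighbours in mean level over these same libraries, so the order was read from the values tested. A pseudocount of 1.06, 0.1 of the median promoter signal, was added before logs were taken. Over the 6 libraries, Psme2 lay above Nfkb2 by 1.24 ± 0.09 log2 units (SD), Nfkb2 above Tifa by 0.94 ± 0.39, Cd55 above Unc13d by 0.46 ± 0.20 and Unc13d above Bcl10 by 1.07 ± 0.12. Each of these held in 6 of 6 libraries (exact two-sided sign-flip permutation p = 0.031, the smallest that 6 libraries allow, and Benjamini-Hochberg adjusted p = 0.038 over 17 such tests). Tifa and Cd55 did not differ beyond their spread (−0.01 ± 0.11, exact permutation adjusted p = 0.88). In the central 400 bp alone, Tifa lay below Cd55 by 0.79 log2 units in the mean (−0.79 ± 0.20, exact permutation adjusted p = 0.035).

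Among all promoters, the highest bin of the mean profile lay within 100 bp of the TSS in 117 of 235 (49.8%). Of the 6 genes only Psme2 was among them. Its highest bin was centred at 10 bp in all 6 libraries, with a signal of 110.1 to 139.5 in 96-well and 138.3 to 205.5 in ALI libraries. Cd55 had its highest bin at 170 bp downstream in 5 libraries and at 190 bp in ALI replicate 1. At Nfkb2 the highest bin lay 250 bp downstream in every library. These 3 summits thus fell in the same or the next bin in every library of both cultures. The others had no such fixed summit. Tifa was highest at 150 or 170 bp in 96-well replicates 1 and 3, but at 770 to 990 bp in the other 4 libraries. Unc13d was highest at −530 or −550 bp in 5 libraries and at −10 bp in ALI replicate 1. Bcl10 was highest in the last bin of its window, at 990 bp, in 5 libraries, and at −390 bp in 96-well replicate 1.

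**Figure D2:**
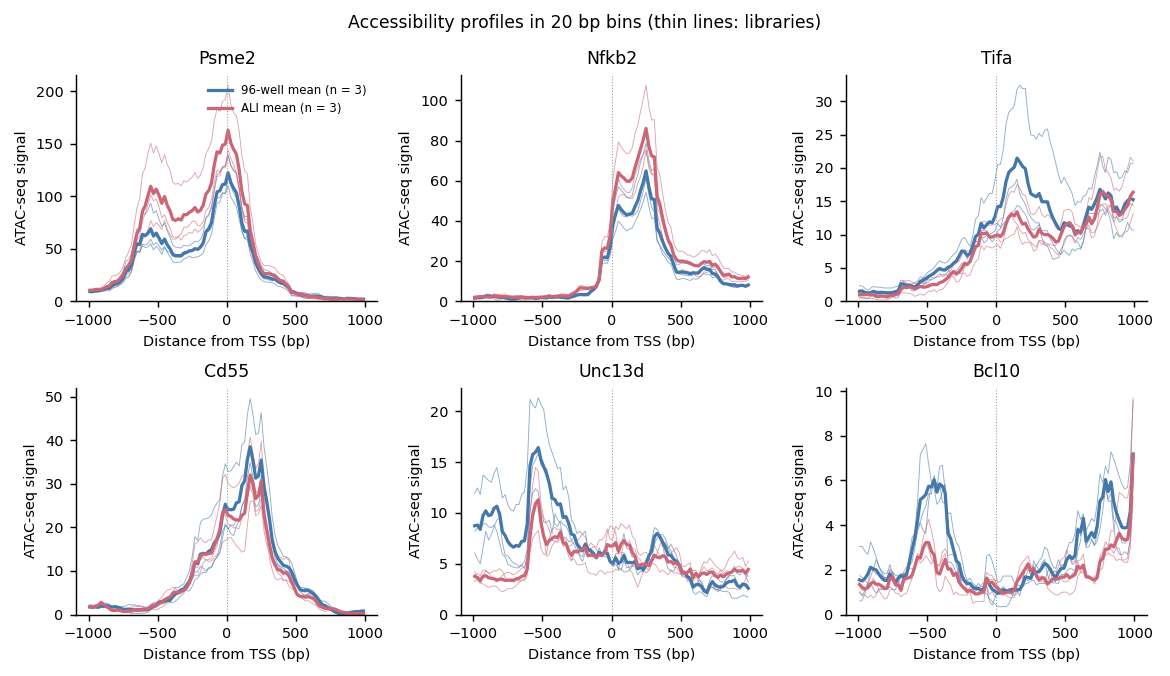
ATAC-seq signal in 20 bp bins against distance from the TSS for the 6 promoters, with thin lines for the 6 libraries and thick lines for the mean of each culture (n = 3). Psme2, Nfkb2 and Cd55 have peaks at 10, 250 and 170 bp, whereas Bcl10 has its lowest signal around the TSS; each panel has its own vertical scale.

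Of the 6 promoters, the centre exceeded the flanks most at Psme2, Cd55 and Nfkb2. The central 400 bp were compared with the outer 200 bp on each side, as a log2 ratio within each library. The mean ratio was 3.59 ± 0.25 (SD, n = 6) at Psme2, 3.37 ± 0.34 at Cd55 and 2.25 ± 0.18 at Nfkb2, against a median of 1.97 over all promoters. At Tifa it was 0.57 ± 0.26. Each was above 0 in 6 of 6 libraries (exact sign-flip permutation p = 0.031, adjusted p = 0.038). Nfkb2 ranked only 97th of 235 by this ratio, and its summit at 250 bp lay outside the central 400 bp. The flanks of Tifa were unequal, with culture means in blocks of 100 bp of 0.78 to 1.36 upstream and 14.2 to 14.8 downstream. Its centre had 10.3 in ALI and 14.5 in 96-well libraries, so in these means it stood above the upstream flank only. Flank signal was 0.91 to 1.21 at Cd55, about the size of the pseudocount, and 6.17 to 8.98 at Psme2. The ratio at Cd55 therefore moved with the pseudocount, to 4.04 with 0.02 and 2.06 with 0.5 of the median, against 3.73 and 3.05 at Psme2, so that the order of these genes turned. Without a pseudocount the linear ratio was 16.0 to 26.8 at Cd55 and 11.3 to 17.0 at Psme2. Bcl10 had the reverse shape. Its centre was below its flanks in 6 of 6 libraries, with a ratio of −0.82 ± 0.33 (exact permutation adjusted p = 0.038), and 32 of the 235 promoters (13.6%) had a mean ratio below 0. The Bcl10 centre (mean 1.20 in ALI and 1.16 in 96-well libraries) was also about the size of the pseudocount. Its ratio was −1.16 with 0.02 and −0.34 with 0.5 of the median. In Unc13d centre and flanks did not differ beyond the spread over both cultures (0.22 ± 0.45, exact permutation adjusted p = 0.30). That spread includes a difference between cultures, as the ratio was 0.57 ± 0.24 in ALI and −0.13 ± 0.29 in 96-well libraries.

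**Figure D3:**
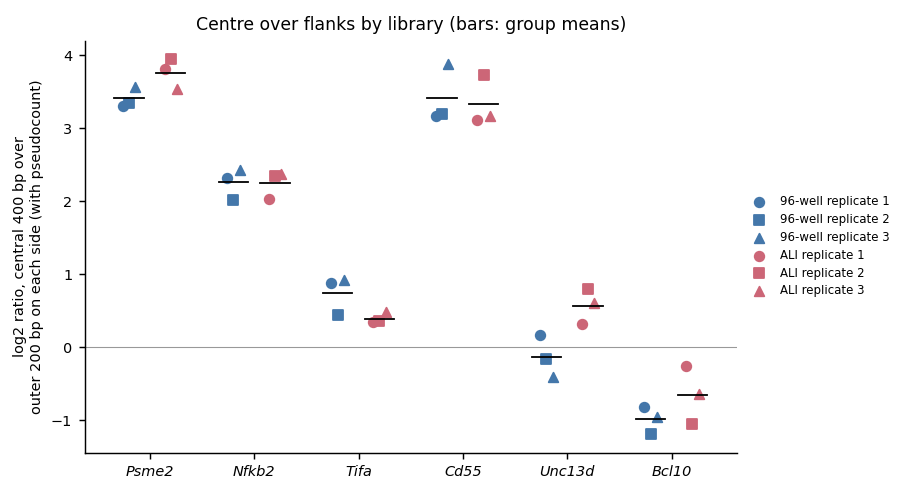
Log2 ratio of signal in the central 400 bp to that in the outer 200 bp on each side, 1 point per library, with black bars at the mean of each culture (n = 3). Psme2, Cd55 and Nfkb2 lie above 2 in every library with the pseudocount of 1.06 and Bcl10 lies below 0 in every library.

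The open region lay on different sides of the start. Signal in the 500 bp downstream of the TSS exceeded that in the 500 bp upstream at Nfkb2 by 2.51 ± 0.19 log2 units (SD, n = 6), at Cd55 by 0.95 ± 0.18 and at Tifa by 0.85 ± 0.24. At Nfkb2 this was 47.6 ± 12.4 downstream against 7.35 ± 1.12 upstream. The upstream side was the higher at Psme2 (−0.60 ± 0.19) and Unc13d (−0.32 ± 0.24). Each of these 5 differences held in 6 of 6 libraries (exact permutation adjusted p = 0.038). The other promoters were not tested in this way, so how common such a difference is in the table is not known. With 200 bp on each side, however, neither Psme2 (−0.04, exact permutation adjusted p = 0.42) nor Unc13d (−0.06, exact permutation adjusted p = 0.66) passed, so their asymmetry lay farther from the start. Bcl10 had no side that passed (−0.32 ± 0.32, exact permutation adjusted p = 0.11).

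At Psme2 the upstream excess was a second accessible region, highest at −550 bp. Between 600 and 200 bp upstream the signal was 45.9, 47.7 and 65.9 in 96-well and 69.2, 126.1 and 74.8 in ALI libraries, against 98.6, 96.2 and 123.1 and 125.7, 182.8 and 121.5 in the 200 bp centred on the TSS. The next gene upstream in RefSeq order is Rnf31, which encodes the catalytic subunit of the linear ubiquitin ligase complex, itself an activator of NF-κB. Whether the upstream region belongs to Rnf31 was not tested. A second Psme2-like gene, Psme2b, is annotated on chromosome 11, and the sources used here do not say how reads shared with it were placed. At Unc13d the highest signal also lay upstream, and the next gene on that side in RefSeq order is Wbp2, which encodes a WW-domain binding protein. At Tifa signal stayed high to the end of the window, at 14.7 in ALI and 14.8 in 96-well libraries over the last 100 bp.

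The profiles differed in how well they repeated. Across pairs of libraries from different cultures (9 pairs), Pearson's r over the 100 bins was 0.987 to 0.997 at Nfkb2, 0.968 to 0.994 at Cd55 and 0.957 to 0.990 at Psme2. It was 0.827 to 0.969 at Tifa, 0.470 to 0.812 at Bcl10 and 0.201 to 0.679 at Unc13d. Pairs within a culture (6 pairs) had 0.508 to 0.892 at Unc13d and 0.658 to 0.885 at Bcl10. Neighbouring bins share reads, so r is given as a description. Among the 6 promoters, the mean profiles of Nfkb2 and Cd55 were the most alike (r = 0.86). Over all other promoters, the profile closest to that of Cd55 was Gga3 (r = 0.97), with Zfp711 closest to Nfkb2 (0.96), Ptgr3 to Psme2 (0.93), St14 to Tifa (0.91), AU015336 to Unc13d (0.77) and Gpr34 to Bcl10 (0.72).

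The comparison of cultures is the one on which the 6 genes were chosen, so its values are given as a description. On the deposited scale the mean change of whole windows, ALI minus 96-well in log2 units of signal plus pseudocount, was 0.47 at Psme2, 0.41 at Nfkb2, −0.17 at Cd55, −0.26 at Tifa, −0.29 at Unc13d and −0.37 at Bcl10. Without 96-well replicate 3 the change was −0.02 at Tifa, 0.0038 at Cd55 and −0.17 at Unc13d, and without ALI replicate 2 it was 0.24 at Psme2, 0.26 at Nfkb2, −0.42 at Tifa and −0.34 at Cd55. Without 96-well replicate 2 it was −0.27 at Cd55, without ALI replicate 1 −0.06 at Cd55, without ALI replicate 3 −0.17 at Tifa and −0.19 at Unc13d, and without 96-well replicate 1 −0.40 at Tifa. With a pseudocount of 0.5 of the median, the change at Bcl10 was −0.17, and that at Unc13d −0.18. With all 6 libraries, none of the 6 genes was called in the limma fit over all promoters, which called 0% of them higher and 0% lower (7 of 235 had an unadjusted p under 0.05). The groups were non-overlapping at 3.83% of all promoters with ALI higher and at 2.13% with ALI lower, and of the 6 genes at Bcl10 only. After median centring, which removed the difference in library level, the changes were 0.30, 0.24, −0.34, −0.43, −0.46 and −0.54 in the same order. There limma called 11.5% of all promoters higher and 10.2% lower in ALI, and the groups did not overlap at 21.7% (higher) and 17.4% (lower). All 6 genes were called and non-overlapping on that scale, Psme2 and Nfkb2 higher and the other 4 lower in ALI, and this is what chose them. In limma, Psme2 (Benjamini-Hochberg adjusted p = 0.036) and Nfkb2 (adjusted p = 0.043) were the last inside the threshold of 0.05. The first outside it were Mrpl32 (0.23, limma adjusted p = 0.0506) and Fn1 (0.27, limma adjusted p = 0.0509). Leaving out 1 library after centring ended the call of Bcl10 (without 96-well replicate 1 or 2 or ALI replicate 2), Psme2 (without any 96-well replicate or ALI replicate 1) and Nfkb2 (without 96-well replicate 1 or 2 or ALI replicate 1 or 3), and eBayes without trend ended all 6. The promoters called in all then numbered 22 without 96-well replicate 1 and 25 without 96-well replicate 2, against 51, and 0 without trend (65 at an unadjusted limma p under 0.05).

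In the whole table, change moved with level. After centring, the median change was −0.17 in the 59 weakest promoters (which held Bcl10), −0.12 in the next 59 (Tifa, Cd55 and Unc13d), 0.04 in the 58 after these (Nfkb2) and 0.18 in the 59 strongest (Psme2). With this relation removed by cyclic loess, a choice made after seeing the data, the changes were 0.04 at Psme2, 0.15 at Nfkb2, −0.23 at Cd55, −0.32 at Tifa, −0.29 at Unc13d and −0.36 at Bcl10.

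**Figure D4:**
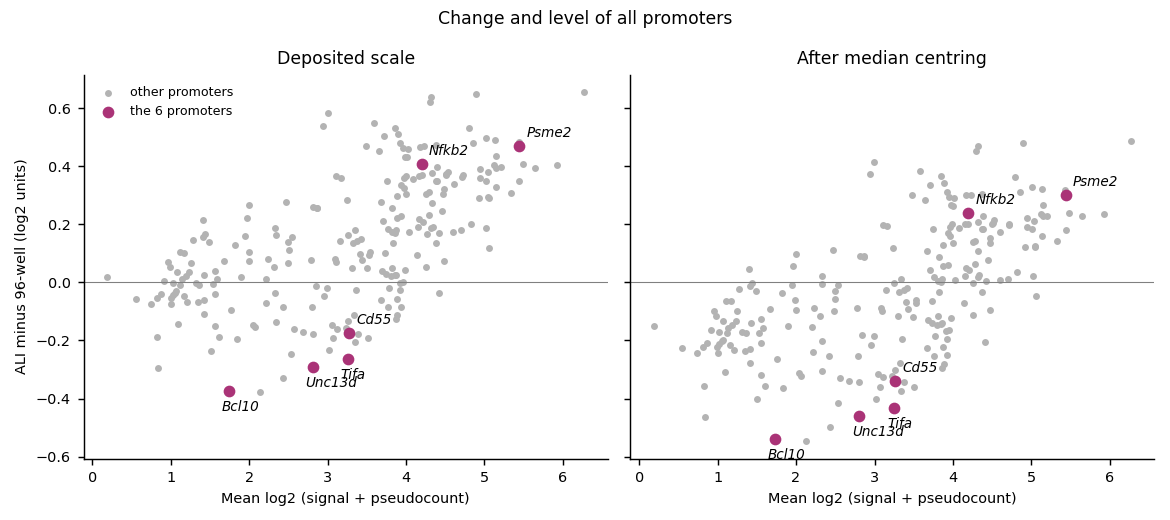
Change between cultures (ALI minus 96-well, log2 units) against mean level for all 235 promoters, on the deposited scale (left) and after median centring (right). The 6 genes are in purple: Psme2 and Nfkb2 lie above 0 at high level, and Cd55, Tifa, Unc13d and Bcl10 lie below 0 at lower level.

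Within the windows, bins that separated the cultures after centring took in the central 400 bp in some genes and lay almost all outside it in others. The regions given here were chosen from the profiles. Of all 23500 bins in the table, 9.19% had all ALI libraries above all 96-well libraries after centring, and 13.9% had them all below. Unc13d had 41 of 100 bins with ALI lower, of which 37 lay upstream of the central 400 bp and 0 within it. Between 1000 and 600 bp upstream, its signal on the deposited scale was 3.90, 3.95 and 2.94 in ALI libraries and 6.40, 6.80 and 12.3 in 96-well libraries, a mean 2.36 times as high in 96-well. In the central 400 bp the mean Unc13d signal (± SD, n = 3) was 6.28 ± 1.29 in ALI and 5.61 ± 0.42 in 96-well libraries. That was a change of 0.12 log2 units on the deposited scale. With libraries centred on the medians of the central 400 bp alone, the change was −0.12. With centring on whole windows, the Unc13d blocks of 100 bp from −200 to 200 bp changed by −0.23, −0.099, 0.15 and 0.053, against −0.46 for the whole window. Its centre-to-flank ratio was above 0 in 3 of 3 ALI libraries (0.32 to 0.79) and in 1 of 3 96-well libraries (−0.41 to 0.17).

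Bcl10 likewise had 37 bins with ALI lower, 20 of them upstream of the central 400 bp, 16 downstream and 1 within. Between 600 and 300 bp upstream its signal was 2.02, 2.94 and 2.30 in ALI and 4.63, 4.42 and 5.61 in 96-well libraries. Between 600 and 800 bp downstream it was 1.98, 2.07 and 2.02 in ALI and 3.74, 4.04 and 4.88 in 96-well libraries. The groups did not overlap in either region. Around the start, by contrast, the means were 1.20 ± 0.19 and 1.16 ± 0.43, a change of 0.04 log2 units on the deposited scale. With libraries centred on the medians of the central 400 bp alone, the change was −0.21. With centring on whole windows, the Bcl10 blocks of 100 bp from −200 to 200 bp changed by −0.24, 0.051, −0.013 and 0.082.

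Tifa had bins with ALI lower on both sides of the start, and those of Cd55 lay mainly downstream. Tifa had 45 such bins after centring, 17 upstream of the central 400 bp, 15 within it and 13 downstream. In the first 400 bp downstream its signal was 9.04, 14.3 and 9.72 in ALI and 13.1, 11.9 and 26.6 in 96-well libraries, so the deposited values overlapped and 96-well replicate 3 stood highest. From 700 to 1000 bp downstream the Tifa means were 14.6 ± 3.92 and 15.0 ± 4.36. Cd55 had 32 bins with ALI lower, 21 of them downstream of the central 400 bp, 7 within it and 4 upstream. Between 100 and 700 bp downstream its mean was 13.3 ± 3.33 in ALI and 16.7 ± 3.68 in 96-well libraries, and over the 500 bp upstream 10.3 ± 2.44 and 10.4 ± 3.75. The ratio of that downstream to that upstream signal was 1.29 ± 0.02 in ALI and 1.66 ± 0.24 in 96-well libraries.

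Psme2 and Nfkb2 had bins with ALI higher after centring, and on that scale their whole windows did not overlap between cultures either. On the deposited scale their whole windows overlapped. Psme2 had 36 bins with ALI higher after centring, all between −550 and 150 bp. The difference was larger in the upstream region (0.72 log2 units on the deposited scale, with no overlap) than at the start (0.42). As a share of the signal at the start, the Psme2 upstream region was 0.62 ± 0.07 in ALI and 0.50 ± 0.04 in 96-well libraries. Nfkb2 had 28 bins with ALI higher, 10 central and 17 downstream of the centre. Over the first 400 bp downstream its signal was 53.5, 78.3 and 56.2 in ALI and 42.1, 37.8 and 56.6 in 96-well libraries, overlapping at 96-well replicate 3. Its centre-to-flank ratio was 2.25 ± 0.19 in ALI and 2.26 ± 0.21 in 96-well libraries, and its change on the deposited scale was 0.40 in the central 400 bp and 0.41 in the outer 200 bp on each side.

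**Figure D5:**
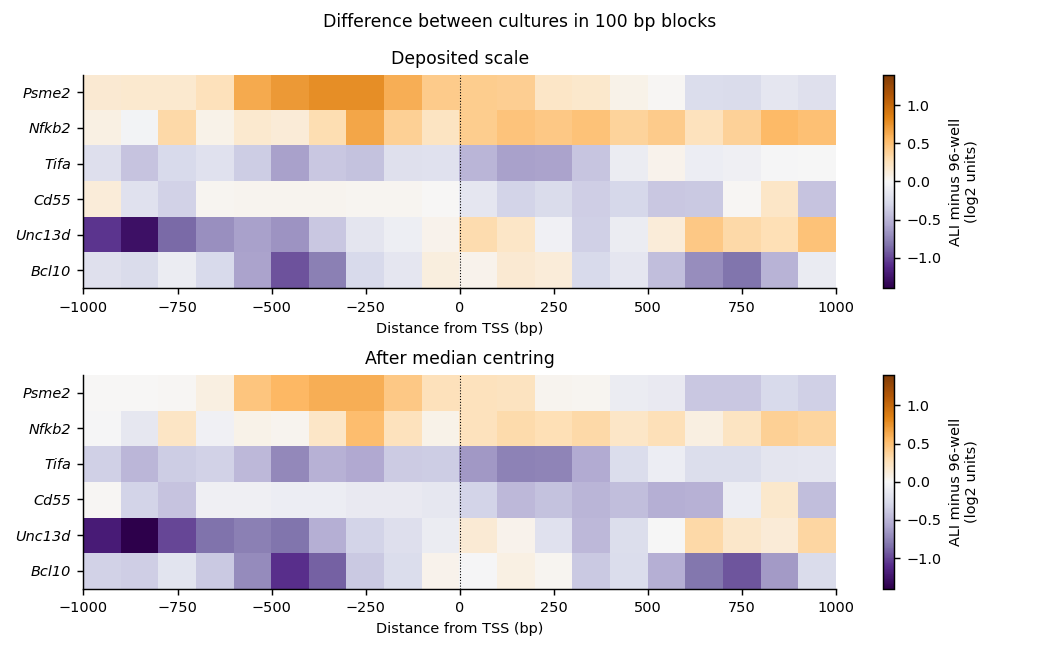
Difference between cultures (ALI minus 96-well, log2 units of signal plus pseudocount) in blocks of 100 bp along the 6 windows, on the deposited scale (top) and after median centring (bottom). Orange is higher and purple lower in ALI; the lowest blocks lie 1000 to 800 bp upstream at Unc13d, and those of Bcl10 lie on both sides of a paler centre.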

How the data were processed

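The assay was ATAC-seq, with 3 ALI and 3 96-well libraries, and groups were taken from the sample titles. The authors deposited signal, that is coverage normalized to sequencing depth per the file headers, as deepTools means over 20 bp bins. The formula, any Tn5 shift and the treatment of duplicates are not given in the sources used here. The submitters' processing notes name deepTools 3.5.1, Picard, Bowtie2 2.5.1 (an aligner), Trim Galore 0.6.10, SAMtools 1.16.1 and the build GRCm39, with no order.

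The 6 members, the lists and the tests were chosen with earlier results of these data known, so no list is independent evidence. The regions within windows were read off the profiles. Named beside the 6 genes is the promoter with the most similar profile to each. Window means were fitted as log2(signal + 1.06) with limma 3.58.1 in R 4.3.3 (eBayes with trend), with Benjamini-Hochberg adjustment over all 235 promoters. A fold change on this scale understates that of weak promoters. In the deposited and the median-centred fit with trend, the eBayes prior degrees of freedom were infinite. The variance of each promoter was then taken from the trend alone, not from its own libraries. Without trend, the prior degrees of freedom after centring were 5.37. Shape and order were tested within libraries, at the 6 genes only, by exact two-sided sign-flip permutation, with Benjamini-Hochberg adjustment over 17 tests. Both tests were checked on simulated data. For limma these had equal log2 noise at every level and were scored after median centring only. Change that moves with level was not simulated. Low bin values were whole multiples of 1 step in every library (100% within 0.1 of a step). With the step taken as 1 base of a read, this gave reads per base. Total reads are unknown, so no counting interval is given. Mean profiles of plus-strand and minus-strand genes both had their summit at −30 bp, so rows were read as oriented along the gene. Alternatives were other pseudocounts, filters, scalings, regions, a replicate block and leaving out each library.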

Additional observations from a re-analysis of the deposited data

How the results depend on the processing

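On the deposited scale limma called 0 promoters (7 at an unadjusted p under 0.05), and also 0 with the replicate block, without trend, in the central 400 bp, without weak promoters, with other pseudocounts or with any 1 library left out (range 0 to 0). In the outer 200 bp on each side it called 1, lower in ALI and not among the 6 genes (25 at an unadjusted p under 0.05). Median centring called 51, quantile normalization 38, equal flank signal 73, centring with the central 400 bp 60 and, chosen after seeing the data, cyclic loess 61, and centring without 96-well replicate 1, 2 or 3 or ALI replicate 1, 2 or 3 called 22, 25, 58, 50, 53 and 40. Of the 6 genes, 6 were called with equal flanks, 3 after quantile normalization (Cd55, Tifa and Bcl10), 4 after cyclic loess (these and Unc13d), 2 with the central 400 bp centred (Cd55 and Tifa) and 0 after centring without trend, which called 0 promoters in all (65 at an unadjusted p under 0.05; limma adjusted p = 0.061 at Bcl10, the lowest). Whether replicate numbers pair the libraries cannot be told from 3 libraries per culture. The deviations of same-numbered libraries correlated at 0.67, −0.61 and −0.60. The highest value, 0.81, joined ALI replicate 2 and 96-well replicate 3, the libraries of highest signal. With the replicate block, centring called 39 promoters and 3 of the 6 genes (Cd55, Tifa and Unc13d). With 1 library left out after centring, Cd55, Tifa and Unc13d were called each time. Bcl10 was not called without 96-well replicate 1 or 2 or ALI replicate 2, Psme2 not without any 96-well replicate or ALI replicate 1, and Nfkb2 not without 96-well replicate 1 or 2 or ALI replicate 1 or 3. The deposited changes of Bcl10 (0.035) and Unc13d (0.12) reversed in the central 400 bp. Centred on the medians of the central 400 bp alone, they were −0.21 and −0.12, with no reversal. The deposited change of Cd55 reversed without 96-well replicate 3 (range without 1 library −0.34 to 0.0038).

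The Unc13d ratio of centre to flanks reversed against all the rest of the window (−0.0059), and the Bcl10 ratio of downstream to upstream with 1000 bp on each side (0.16); neither passed in either form. With 200 bp on each side, the ratios of Unc13d (−0.059) and Psme2 (−0.039) no longer passed. In the central 400 bp, Tifa minus Cd55 passed (−0.79). The cause of these was not tested. The remaining 58 alternative values of these 17 within-library results kept their direction and side of the threshold. With 1 library left out, all 102 values moved by less than 1 SD, as values with no test, since 5 libraries cannot reach p below 0.0625.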
